A study of Homo sapiens with 12 samples.

Results

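The CEP genes encode a numbered set of centrosomal proteins. Members were taken as the protein-coding genes whose symbol is CEP followed by a number, which gave 39 of the 60483 genes in the total RNA count tables. Of these, 38 had enough counts to be compared. CEP295NL was the exception, with 1, 2 and 0 counts in the mut libraries against 3, 0 and 1 in the WT libraries. The name marks where the proteins were found and not a shared ancestry, so the members do not form a sequence family.

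All RNA came from the established human line HEK293, derived from embryonic kidney and carrying a doxycycline-inducible cassette in the Flp-In T-REx system. The mut group produced a catalytic mutant of DIS3L2 and the WT group produced wild-type DIS3L2. DIS3L2 is a cytoplasmic 3′ to 5′ exoribonuclease that degrades uridylated RNA. In both groups the protein was recoded and FLAG-tagged at its C-terminus, the cassette also carried sh-miRNAs against the endogenous DIS3L2 mRNA, and RNA was taken after 3 days in 100 ng/ml doxycycline. There was no uninduced or untransfected group, so the WT cells also make DIS3L2 from the cassette. Each group had 3 rRNA-depleted total RNA libraries and 3 small RNA libraries. Nothing in the labels says that the replicates were separate cultures, nor how many cell lines stood for each group, so the errors measure the spread between libraries, which may be technical. A difference between the lines that is unrelated to DIS3L2 activity cannot be told apart from an effect of the mutation.

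A centrosome is a pair of centrioles, short cylinders of microtubules, held in a protein matrix that nucleates microtubules. A new centriole is assembled beside each old one in every cell cycle, and the older centriole carries appendages with which it can dock at the membrane and template a primary cilium. CEP proteins act at each of these steps: some start or lengthen the new centriole, some build the appendages or tie the centrioles together, and some make the ciliary gate or travel in the granules called centriolar satellites. Several CEP genes are known for inherited disease, among them CEP290 in Joubert syndrome and retinal dystrophy, and CEP135 and CEP152 in primary microcephaly.

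The 200 bases upstream of the annotated start are shown for the 3 genes with the largest fall in mut cells among those whose window lies outside their own gene, and for both genes that were higher in mut cells. They are RefSeq sequence, GRCh38.p14, written 5′ to 3′ on the strand of the gene. Capitals mark CCAAT, the box bound by NF-Y, and TTTGAA, the core of the cell cycle homology region (CHR) bound by the DREAM and MMB complexes, in either orientation (ATTGG and TTCAAA on the other strand). The windows are chr12:88142089-88142288 on the minus strand for CEP290, chr6:84227644-84227843 on the minus strand for CEP162, chr15:48811070-48811269 on the minus strand for CEP152, chr18:12991162-12991361 on the plus strand for CEP192 and chr18:12702778-12702977 on the minus strand for CEP76.
CEP290: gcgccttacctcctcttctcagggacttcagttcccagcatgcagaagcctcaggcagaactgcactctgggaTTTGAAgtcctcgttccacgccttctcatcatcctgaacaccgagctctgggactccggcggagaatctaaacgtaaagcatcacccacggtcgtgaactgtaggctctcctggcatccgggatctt
CEP162: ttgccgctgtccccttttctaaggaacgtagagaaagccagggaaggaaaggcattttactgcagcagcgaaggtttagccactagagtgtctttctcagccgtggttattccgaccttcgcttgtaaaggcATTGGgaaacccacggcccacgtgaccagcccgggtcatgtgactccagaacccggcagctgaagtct
CEP152: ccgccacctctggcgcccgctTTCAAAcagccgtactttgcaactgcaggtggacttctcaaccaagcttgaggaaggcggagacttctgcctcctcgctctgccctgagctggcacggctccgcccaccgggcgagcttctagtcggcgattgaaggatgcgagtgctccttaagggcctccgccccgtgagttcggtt
CEP192: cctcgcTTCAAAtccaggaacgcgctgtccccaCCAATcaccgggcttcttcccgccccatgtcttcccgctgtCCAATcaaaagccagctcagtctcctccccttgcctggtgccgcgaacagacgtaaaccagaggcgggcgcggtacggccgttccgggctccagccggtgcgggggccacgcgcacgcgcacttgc
CEP76: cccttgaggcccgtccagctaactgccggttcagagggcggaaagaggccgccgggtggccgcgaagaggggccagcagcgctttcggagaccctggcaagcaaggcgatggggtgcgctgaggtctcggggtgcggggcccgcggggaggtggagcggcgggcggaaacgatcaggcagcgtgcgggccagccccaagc

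CEP genes were lower in mut than in WT cells more often than they were higher. Of the 38 members, 17 were called lower and 2 higher, and 19 were not called. A call means an adjusted p under 0.05 in edgeR's quasi-likelihood F test with Benjamini-Hochberg adjustment over all 14409 genes tested. Among all those genes 14.2% were called lower and 13.0% higher, against 44.7% and 5.3% of the members. The family was chosen by its log2 fold changes in these same libraries, so the counts describe it and test nothing. DESeq2 called 12 members lower and 2 higher, against 9.42% and 9.13% of all genes. The median log2 fold change, mut over WT, was -0.18 over the members and -0.01 over all genes tested, and 28 members had a value under 0. In CPM, the count divided by the scaled library size, all 3 mut libraries lay under all 3 WT libraries for 18 members, and above them for 3 members. The background for such non-overlap is 21.2% of all genes tested downward and 19.4% upward. The fall was mostly shallow, with log2 fold changes of the 17 between -0.24 and -0.90. In bulk RNA, fewer cells that make a transcript and less RNA per cell cannot be told apart.

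**Figure D1:**
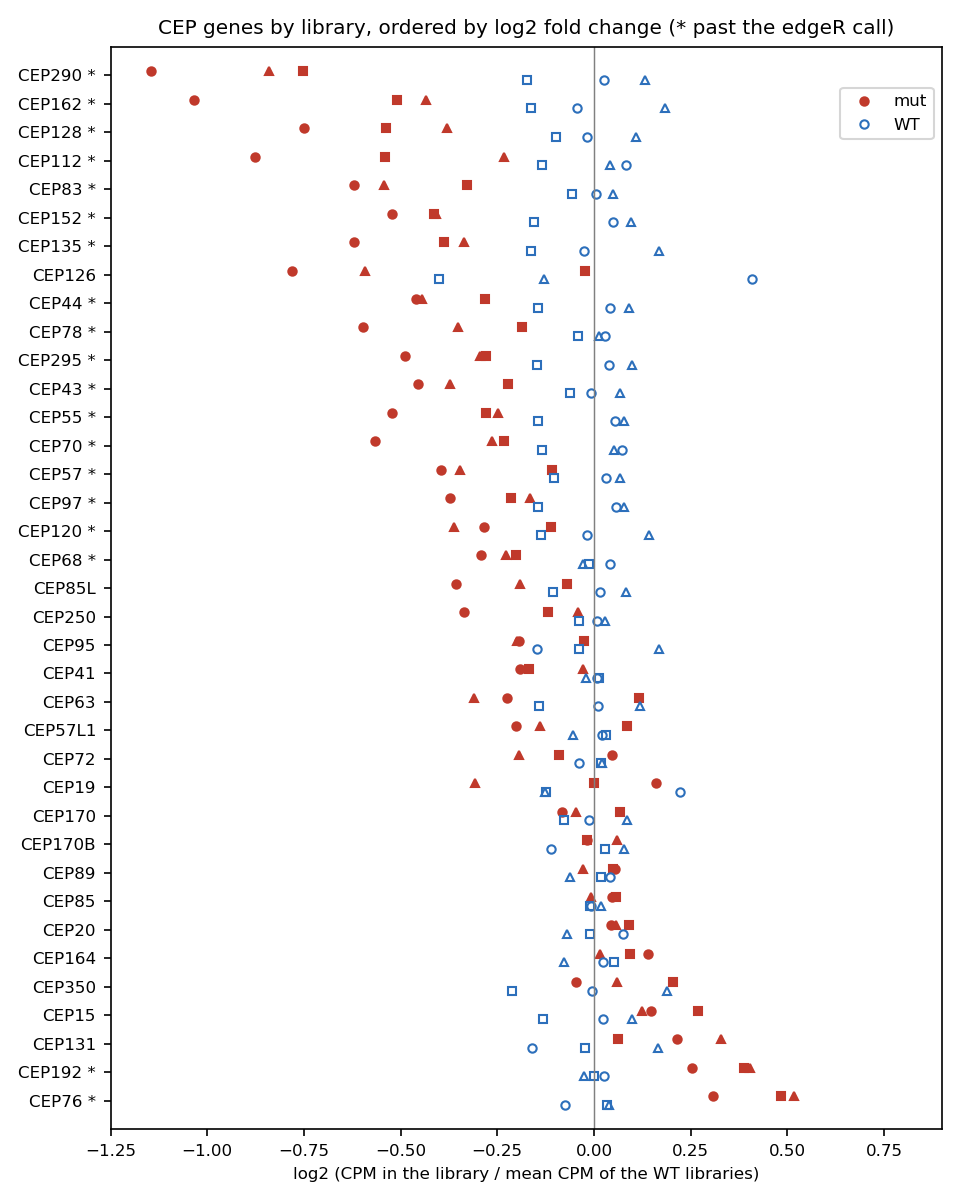
CPM of the CEP genes tested, with 1 not shown, in each total RNA library, as log2 of the ratio to the mean of the WT libraries (horizontal axis). Filled red marks are mut libraries and open blue marks WT libraries, with circle, square and triangle for libraries 1, 2 and 3, and an asterisk marks an edgeR call. The mut marks lie to the left of the WT marks in most of the upper 18 rows, furthest for CEP290, and to the right for CEP192 and CEP76 at the bottom.

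CEP290, which builds the gate at the base of the cilium, had the largest difference of the family. Its level was 40.1, 52.6 and 49.5 CPM in the mut libraries and 90.3, 78.5 and 97.1 CPM in the WT libraries. Every mut library lay far under the lowest WT library. The means were 47.4 ± 6.5 CPM in mut and 88.6 ± 9.4 CPM in WT (SD, n = 3 each), with a log2 fold change of -0.90 (SE 0.09). The CEP290 level fell by 46.3%. CEP162, which binds axonemal microtubules and tethers transition zone proteins including CEP290, was measured at 10.6, 15.3 and 16.1 CPM in mut and at 21.1, 19.4 and 24.7 CPM in WT. The groups did not overlap and the log2 fold change was -0.62 (SE 0.13), with the first mut library well under the other two. CEP78, a centriole wall protein linked to cone-rod dystrophy, was lower at 53.1, 70.7 and 63.0 CPM in mut against 82.0, 78.1 and 81.1 CPM in WT. CEP43 (FOP), which anchors microtubules and with CEP19 and CEP350 sits at the distal end of the centriole, was lower at 15.4, 18.1 and 16.3 CPM in mut against 21.0, 20.2 and 22.1 CPM in WT. The CEP43 call was lost under DESeq2 and without any of 3 libraries, mut 1, mut 3 or WT 3.

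The other 8 genes of the cilium and satellite group were not called. CEP350 had 194, 231 and 209 CPM in mut and 200, 173 and 229 CPM in WT, a wide overlap. CEP126, a low-count gene, had a log2 fold change of -0.41 with an SE of 0.22. CEP131, a satellite protein, had 19.3, 17.4 and 20.9 CPM in mut and 14.9, 16.4 and 18.7 CPM in WT, overlapping, with a log2 fold change of 0.22 (SE 0.11). CEP41, needed for tubulin glutamylation in cilia, CEP72, a satellite protein, CEP19 and CEP20 had log2 fold changes from -0.13 for CEP41 to 0.06 for CEP20. For CEP41 the libraries nevertheless did not overlap, at 23.8, 24.2 and 26.7 CPM in mut and 27.3, 27.4 and 26.8 CPM in WT. Over the 12 genes of this group 4 were called lower and 0 higher, with a median log2 fold change of -0.14.

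Genes of centriole assembly held the most calls in both directions, 7 lower and 2 higher of 12, with a median log2 fold change of -0.24. CEP152, the scaffold that recruits the kinase PLK4 to the old centriole, had 29.4, 31.7 and 31.8 CPM in mut and 43.6, 37.9 and 45.1 CPM in WT. The mut libraries were closely grouped and all under the WT range, and the log2 fold change was -0.44 (SE 0.09). CEP135, a protein of the cartwheel region on which the new centriole is built, had 26.9, 31.6 and 32.7 CPM in mut and 40.6, 37.0 and 46.4 CPM in WT, with no overlap and a log2 fold change of -0.43 (SE 0.09). CEP44 and CEP295 are needed for a new centriole to become a centrosome. CEP44 averaged 32.4 ± 2.3 CPM in mut and 42.6 ± 3.6 CPM in WT (SD, n = 3 each). CEP295 had 64.6, 74.7 and 73.9 CPM in mut against 93.2, 81.8 and 97.1 CPM in WT. In both genes the groups were separate, and the log2 fold changes were -0.39 (SE 0.09) for CEP44 and -0.35 (SE 0.08) for CEP295.

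CEP57, CEP97 and CEP120 were lower by less, with log2 fold changes of -0.27, -0.24 and -0.24 and SEs of 0.08 each. CEP57 acts with CEP63 and CEP152 around the old centriole, CEP97 caps its end together with CCP110, and CEP120 lengthens the new one. CEP97 was not called under DESeq2 or without mut 1, WT 1 or WT 3. CEP57 was not called without mut 1, mut 3, WT 1 or WT 3, and CEP120 in the same cases, under DESeq2 and upper quartile scaling and with the span trend removed. CEP120 also overlapped between groups, at 47.2, 53.3 and 44.8 CPM in mut and 56.9, 52.3 and 63.5 CPM in WT. CEP63, a partner of CEP152, CEP57L1, the paralogue of CEP57, and CEP85, which binds STIL and supports PLK4 activity, were not called. CEP85 averaged 84.1 ± 2.0 CPM in mut libraries against 82.2 ± 0.94 CPM in WT libraries (SD, n = 3 each).

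CEP192 and CEP76 were the 2 members called higher in mut. CEP192, the scaffold that brings PLK4, Aurora A and PLK1 to the centrosome, had 177, 195 and 196 CPM in mut and 151, 149 and 146 CPM in WT. The log2 fold change was 0.35 (SE 0.06), a rise by 27.4%, with a clear gap between the groups. CEP76, which restrains repeated duplication of centrioles, had 28.7, 32.4 and 33.2 CPM in mut and 22.0, 23.7 and 23.8 CPM in WT, a log2 fold change of 0.44 (SE 0.09). CEP152 and CEP192, which recruit PLK4 together, thus stood on opposite sides of 0. Tested protein-coding genes within 5 Mb of CEP192 had a median log2 fold change of 0.43. The part of this regional shift in the CEP192 value was not tested. Both higher genes lie on chromosome 18, at chr18:12991362-13125036 for CEP192 and chr18:12661956-12702777 for CEP76.

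**Figure D2:**
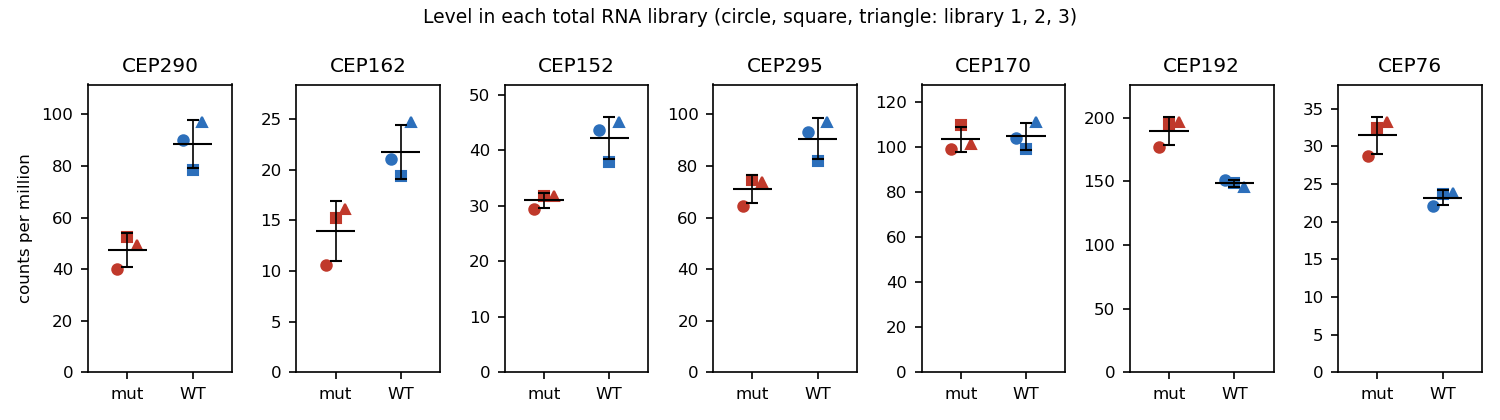
CPM (vertical axis, from 0) of 7 CEP genes in the 3 mut (red, left) and 3 WT (blue, right) total RNA libraries, with the mean and SD as black bars. CEP290 falls to 47.4 CPM in mut, against 88.6 CPM in WT, CEP170 is at 103 and 105 CPM, and CEP192 and CEP76 lie higher in mut.

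Of the 8 appendage and linker genes, 3 were called lower and 0 higher, and their median log2 fold change was -0.09. CEP83, the distal appendage protein on which the others assemble, had 33.3, 40.8 and 35.2 CPM in mut and 51.4, 49.3 and 53.0 CPM in WT, with wide separation and a log2 fold change of -0.49 (SE 0.08). CEP128, of the subdistal appendages, had 14.5, 16.8 and 18.7 CPM in mut and 24.1, 22.8 and 26.3 CPM in WT, with a log2 fold change of -0.54 (SE 0.10). CEP68, which joins the centriole pair, was lower by a log2 fold change of -0.24 (SE 0.08). Its call was lost in 7 alternatives, among them DESeq2 and each library left out except mut 2 and WT 2. The distal appendage proteins CEP89 and CEP164, which sit on CEP83, were not called. CEP164, which brings the kinase TTBK2 to the centriole for ciliogenesis, had 31.3, 30.3 and 28.7 CPM in mut and 28.9, 29.4 and 26.9 CPM in WT. CEP170 and its paralogue CEP170B had log2 fold changes of -0.02 and 0.01, and CEP250 (C-NAP1), the root of the linker, had -0.16. Differences between genes of the same structure were not tested.

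Among the 6 members left, CEP112, CEP55 and CEP70 were called lower. CEP55, which recruits the ESCRT machinery to the midbody for the last step of cell division, had 44.0, 52.0 and 53.2 CPM in mut and 65.7, 57.2 and 66.7 CPM in WT, a log2 fold change of -0.34 (SE 0.08). CEP112 had a log2 fold change of -0.52 (SE 0.14) on low levels of 6.70, 8.46 and 10.5 CPM in mut and 13.0, 11.2 and 12.7 CPM in WT, and lost its call without mut 1. CEP70, which binds gamma-tubulin, had -0.34 (SE 0.12) and lost its call with the span trend removed, under DESeq2 and upper quartile scaling, and without any of mut 1, mut 3, WT 1 and WT 3. CEP85L, mutated in lissencephaly, CEP95 and CEP15 were not called, with log2 fold changes of -0.20, -0.13 and 0.19. CEP15 still had all 3 mut libraries above the WT libraries, at 12.8, 14.0 and 12.6 CPM in mut and 11.8, 10.6 and 12.4 CPM in WT.

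The calls of 10 of the 17 lower members (CEP290, CEP162, CEP128, CEP83, CEP152, CEP135, CEP44, CEP78, CEP295 and CEP55) were made under every alternative run checked. Fits with both the span trend removed and a library left out were not part of this check. The number called lower depended on single libraries, falling to 10 without mut 1 and to 11 without WT 3. Both libraries are the extremes of the family. The median over the members of the log2 deviation from each gene's mean was -0.21, -0.03 and -0.09 in mut 1, 2 and 3 and 0.12, 0.03 and 0.19 in WT 1, 2 and 3. Other protein-coding genes spanning over 50 kb moved with it by library, at -0.08, -0.003 and -0.02 in mut and 0.05, 0.01 and 0.06 in WT. Those spanning up to 10 kb moved the other way in these 2 libraries, at 0.10 in mut 1 and -0.06 in WT 3. For these other genes 1 was added to CPM before the log, but not for the members. The sizes of the deviations are therefore not on the same scale. The part of this library pattern in the family's values was not tested. Summed over the members, the levels overlapped between groups, at 1611, 1814 and 1739 CPM in mut and 1884, 1775 and 1970 CPM in WT.

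Across protein-coding genes, a longer span went with a slightly lower log2 fold change, and CEP genes are long. The median gene span, from RefSeq coordinates, was 66.5 kb over the members tested and 33.4 kb over the other protein-coding genes. Across genes, Spearman's rho between span and log2 fold change was -0.34 over the 38 members and -0.23 over 12167 protein-coding genes, points that share the same 6 libraries. When the trend on span was taken out of each library, rho was -0.23 over the members and -0.01 over the protein-coding genes. After that step 15 members were called lower and 2 higher, against 14.4% and 13.6% of all genes tested, and the members' median log2 fold change was -0.14. CEP70 and CEP120 were the calls lost. CEP290 stood at -0.85 and CEP162 at -0.57, while CEP128 and CEP112, which span 482.5 and 556.6 kb, came to -0.40 and -0.37. CEP192, spanning 133.7 kb, came to 0.42.

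The members were also set beside other protein-coding genes of like span. Between 30 and 50 kb, 6 of 13 members were called lower, with a median of -0.16, against 14.8% and a median of -0.02 over the other genes. Between 50 and 100 kb it was 7 of 13 members with a median of -0.34, against 20.5% and -0.05. Over 100 kb it was 4 of 9 members with a median of -0.20, against 24.9% and -0.10. Of the 3 members under 30 kb none was called. CEP15 and CEP20, between 10 and 30 kb, had a median of 0.13, against 0.02 over the other genes, so in that bin the order was the other way. CEP19, under 10 kb, had -0.03, against a median of 0.07.

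**Figure D3:**
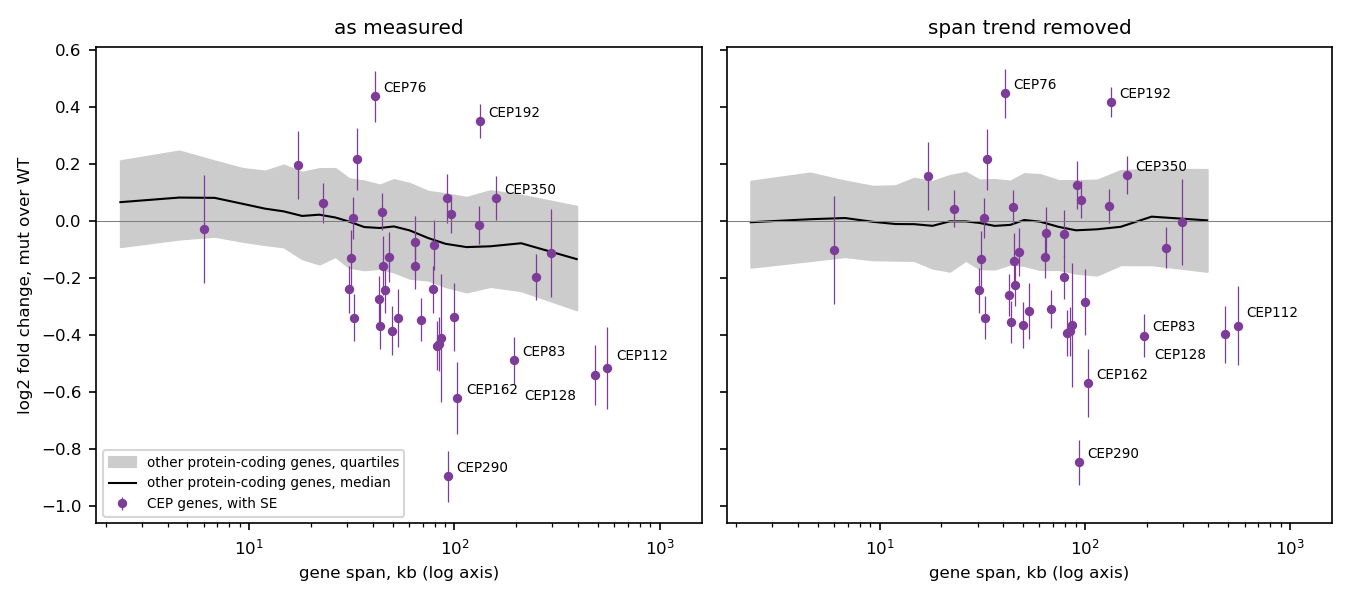
Log2 fold change, mut over WT, against gene span in kb (log axis) for the 38 CEP genes (purple, with SE), before (left) and after (right) the span trend was removed. The line and grey band are the median and quartiles of other protein-coding genes in equal-sized bins. The band tilts down with span on the left and is level on the right, where CEP290 stays at -0.85.

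Each member was also set beside the tested protein-coding genes within 5 Mb on its chromosome, 13 to 98 genes per member. The neighbours' median log2 fold change ranged from -0.25 around CEP44 to 0.43 around CEP192. Neighbourhoods thus differed among themselves by as much as many members differed from 0. Of the 38 members 27 were under their neighbours' median and 11 above it, with a median difference of -0.16. All 17 members called lower were under it, an outcome that their choice as low genes nearly fixes. CEP290 lay at -0.90 where 13 neighbours had a median of -0.18, and CEP128 at -0.54 where 27 neighbours had 0.01. CEP44 was closer, at -0.39 beside a median of -0.25.

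The higher members lay close to the genes around them. CEP76 lay at 0.44 where 28 neighbours had a median of 0.41, and CEP192 at 0.35 where 27 had 0.43. In each case 22 of the neighbours were called higher and 0 lower. CEP76 and CEP192 lie close together, so their windows largely overlap and are not separate observations. On chromosome 18 as a whole, 111 of 182 other protein-coding genes tested were called higher and 0 lower, with a median of 0.28. CEP350, on chromosome 1, lay at 0.08 among 35 neighbours with a median of 0.37, of which 24 were called higher and 0 lower. The part of these regional shifts in the values of CEP192, CEP76 and CEP350 was not tested.

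**Figure D4:**
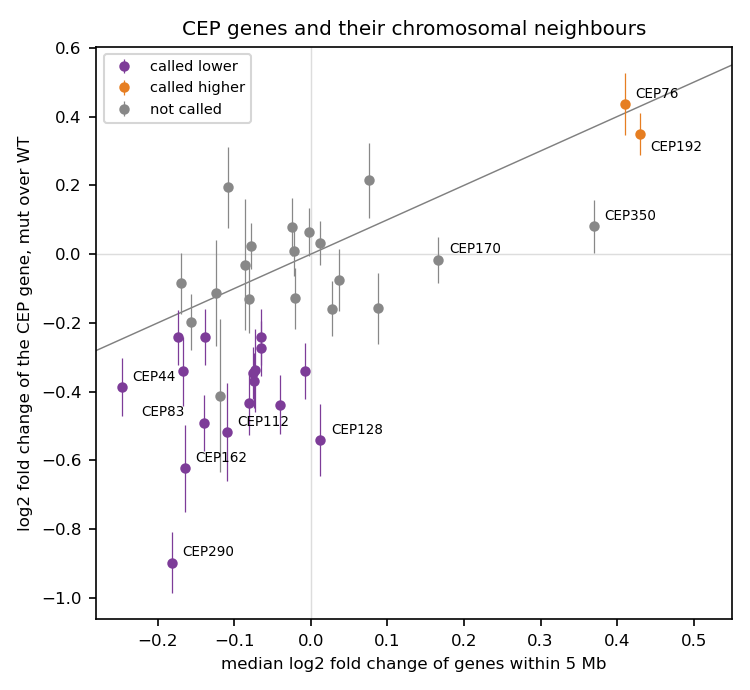
Log2 fold change, mut over WT, of each CEP gene with its SE (vertical axis) against the median over protein-coding genes within 5 Mb (horizontal axis). Purple genes were called lower, orange higher and grey not called, and the diagonal marks equal values. CEP76 and CEP192 sit near the diagonal at the upper right, and all purple genes lie under it.

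Other genes of the centrosome and cilium, in 7 lists of genes without a CEP symbol, were called lower in 34 and higher in 10 of 116 tested, or 29.3% and 8.6% against the background of 14.2% and 13.0%. Their median log2 fold change was -0.07. The lists differed. The satellite list had 8 lower and 1 higher of 13 with a median of -0.37, and centriole duplication had 7 lower and 2 higher of 20 with a median of -0.09. Intraflagellar transport had 6 lower and 0 higher of 22, the transition zone 5 and 2 of 19, pericentriolar material 4 and 2 of 20, appendages and linker 3 and 2 of 14, and augmin 1 and 1 of 8. The transition zone count dropped to between 1 and 3 in 12 alternatives. Without WT 3 the count called lower dropped to 3 for centriole duplication and to 3 for intraflagellar transport, which also had 3 under DESeq2. Whether the lists differ from each other was not tested.

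**Figure D5:**
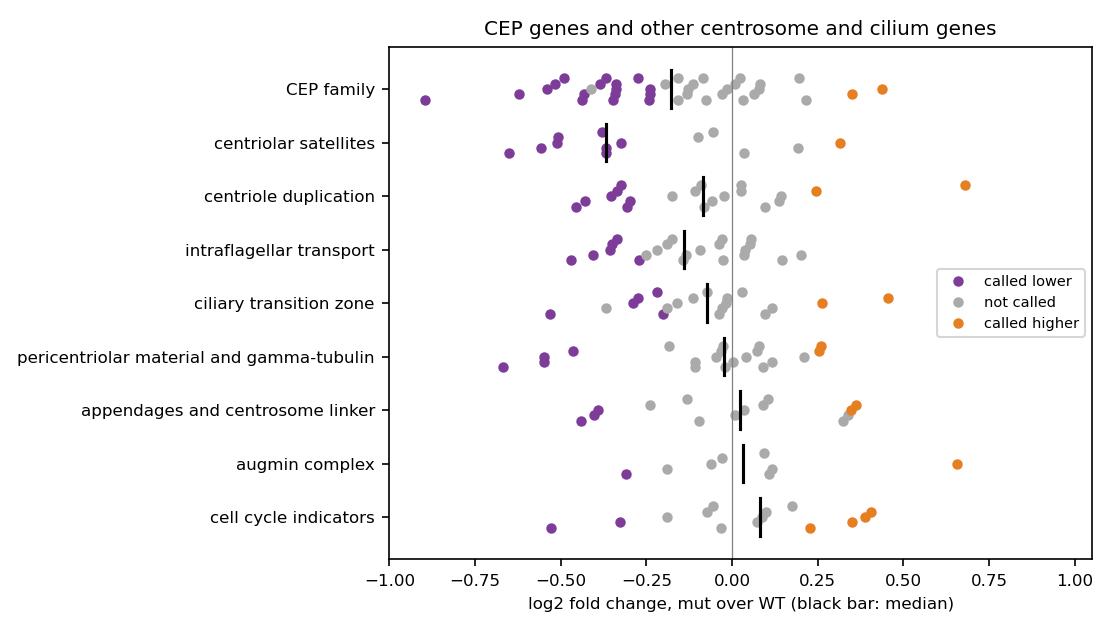
Log2 fold change, mut over WT, of the CEP genes and of genes in 8 other lists (rows). Each point is a gene, coloured by its edgeR call, and the black bar is the median of the row, which is -0.37 for centriolar satellites, -0.18 for the CEP genes and 0.08 for cell cycle indicators.

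Satellites are granules that move centrosomal proteins along microtubules around the scaffold PCM1, and CEP290, CEP131 and CEP72 reside in them. PCM1 had 207, 263 and 257 CPM in mut and 321, 290 and 335 CPM in WT, with a log2 fold change of -0.38 (SE 0.07) and an adjusted p of 0.00034 in edgeR. CCDC14 fell to 63.7 ± 4.3 CPM in mut, against 91.1 ± 7.9 CPM in WT (SD, n = 3 each), with a log2 fold change of -0.51 and an edgeR adjusted p of 1.2e-05. CCDC18 fell by 0.56 (edgeR adjusted p = 0.00036). LRRCC1, at under 9 CPM in every library, fell by 0.65 (edgeR adjusted p = 0.014) and was not called under DESeq2 or without mut 1, mut 3 or WT 1. The ubiquitin ligase MIB1, also on chromosome 18, rose to 174 ± 7.7 CPM in mut, against 140 ± 7.6 CPM in WT (edgeR adjusted p = 0.00046).

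Of the 20 duplication genes the 7 called lower include PLK4 and SASS6. SASS6, which forms the cartwheel, had 41.0, 47.3 and 44.5 CPM in mut and 62.3, 52.9 and 64.6 CPM in WT, with a log2 fold change of -0.43 (edgeR adjusted p = 0.00036). PLK4, the kinase that starts duplication, had 25.7, 28.9 and 29.5 CPM in mut and 35.5, 33.3 and 36.9 CPM in WT, with a log2 fold change of -0.32 (edgeR adjusted p = 0.0063). CPAP, which lengthens the new centriole with CEP120, fell by 0.34 and SPICE1 by 0.46 (edgeR adjusted p = 0.0059 and 0.00086). CCP110, the partner of CEP97, fell by 0.31 (edgeR adjusted p = 0.014), with groups that overlapped. POC1B, a centriole wall protein, fell by 0.35 (edgeR adjusted p = 0.012) and was not called under DESeq2 or without mut 1 or WT 3. CCP110 lost its call without mut 1, WT 1 or WT 3, and CPAP without mut 3 or WT 3. STIL, which binds both PLK4 and SASS6, was not called, with 80.1 ± 3.9 CPM in mut libraries against 86.5 ± 4.9 CPM in WT libraries (edgeR adjusted p = 0.26). Higher in this list were RTTN, on chromosome 18, by 0.24, and HYLS1, at under 5 CPM, by 0.68 (edgeR adjusted p = 0.0094 and 0.034). HYLS1 was not called under DESeq2 or without mut 3, WT 2 or WT 3.

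In the pericentriolar material the large scaffolds went different ways. AKAP9, which anchors gamma-tubulin complexes, had 57.4, 66.7 and 62.2 CPM in mut and 99.2, 85.4 and 113 CPM in WT, with a log2 fold change of -0.67 (SE 0.08) and an adjusted p of 1.7e-06 in edgeR. NEDD1, which targets the gamma-tubulin ring to the centrosome and is recruited through CEP192, fell to 54.1 ± 3.3 CPM in mut, against 79.3 ± 5.4 CPM in WT, and the mitotic centrosome protein KIZ fell to 18.1, 18.1 and 17.9 CPM in mut, against 25.5, 26.9 and 26.7 CPM in WT (edgeR adjusted p = 4.5e-06 and 7.4e-05). Pericentrin (PCNT) rose to 144 ± 5.3 CPM in mut, against 121 ± 3.0 CPM in WT (edgeR adjusted p = 0.0029). PCNT lies on chromosome 21, where 39 of 109 protein-coding genes tested, PCNT among them, were called higher and 2 lower. MZT1, a small gamma-tubulin ring subunit, rose by 0.26 (edgeR adjusted p = 0.0086), a call lost without WT 3. CDK5RAP2, a microcephaly gene that activates gamma-tubulin complexes, was not called, with 44.1 ± 1.9 CPM in mut libraries against 50.2 ± 4.3 CPM in WT libraries (edgeR adjusted p = 0.082).

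Appendage and linker genes without a CEP symbol split as well. CNTLN, SCLT1 and ANKRD26 fell by 0.44, 0.40 and 0.39 on the log2 scale (edgeR adjusted p = 0.00046, 0.0012 and 0.00047), SCLT1 and ANKRD26 being distal appendage proteins like CEP83. NEK2, the kinase that dissolves the CEP250 linker, rose to 49.0 ± 3.6 CPM in mut, against 38.5 ± 0.36 CPM in WT, and the linker protein LRRC45 rose by 0.36 (edgeR adjusted p = 0.0015 and 0.001). TTBK2, the kinase that CEP164 recruits, averaged 37.4 ± 3.6 CPM in mut libraries and 37.2 ± 4.6 CPM in WT libraries. Among transition zone genes AHI1, a Joubert syndrome gene, fell to 36.2 ± 4.2 CPM in mut, against 52.4 ± 2.8 CPM in WT (edgeR adjusted p = 3.5e-05), while TMEM107 rose by 0.45 (edgeR adjusted p = 0.00031). The calls of RPGRIP1L (-0.29), INVS (-0.27) and TCTN2 (0.26) were marginal, with edgeR adjusted p of 0.0096, 0.046 and 0.029. RPGRIP1L lost its call without mut 1, mut 3 or WT 3, TCTN2 without mut 2, mut 3, WT 1 or WT 3, and INVS without any library except WT 3. In intraflagellar transport WDR19 and TTC21B, of the complex that carries cargo back from the tip, fell by 0.47 and 0.40, and IFT81, which binds tubulin, fell by 0.36 (edgeR adjusted p = 0.00016, 0.00099 and 0.0054). In the augmin complex, which branches spindle microtubules, HAUS6 fell by 0.31 and HAUS1, on chromosome 18, rose by 0.66 (edgeR adjusted p = 0.0016 and 4.5e-07).

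Of 14 cell cycle indicators 2 were called lower and 4 higher, or 14.3% and 28.6%, against 14.2% and 13.0% of all genes tested. The share called lower was thus close to the background. The median of the 14 log2 fold changes was 0.08. CCND1, a G1 cyclin, fell to 74.4 ± 3.7 CPM in mut, against 107 ± 1.1 CPM in WT, and the proliferation marker MKI67 fell to 360 ± 28 CPM in mut, against 452 ± 32 CPM in WT. CCNB1, a mitotic cyclin, rose to 305 ± 9.2 CPM in mut, against 233 ± 1.4 CPM in WT, and MYBL2 and E2F1 rose by 0.41 and 0.35. The adjusted p of these 5 genes in edgeR were 1.2e-06, 0.00029, 9.6e-06, 0.00012 and 0.00034. Transcription of some CEP genes, CEP55 among them, is known to vary with cell cycle phase, and the part of phase differences in the family's values was not tested.

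Usable upstream windows existed for 33 of the 38 members tested, and CEP15, CEP170B, CEP250 and CEP78 were among the members without one. CCAAT (both strands) occurred in 16 of the 33 windows, or 48.5%, and in 31.7% of the windows of 10034 other tested protein-coding genes. TTTGAA (both strands) occurred in 7 members, or 21.2%, against 5.9% of the other genes, and both motifs in 5 members, or 15.2%, against 2.5%. The 7 with TTTGAA were CEP152, CEP192, CEP290, CEP295, CEP55, CEP57 and CEP89. Of these 5 were called lower, CEP192 higher and CEP89 not at all. The share called lower was 44.7% over all members tested and 14.2% over all genes tested. Members without TTTGAA, such as CEP162, CEP128 and CEP83, were also called lower. Whether calls go with the motif was not tested. Of the 33 member windows 9 lie inside the gene itself, as do 1482 of the other windows. Over the 24 windows outside, CCAAT was in 13 members, or 54.2% against 32.6% of the other genes, TTTGAA in 7, or 29.2% against 5.9%, and both in 5, or 20.8% against 2.5%. A letter match is a description of the window and not a bound site, and motifs were compared without adjustment for base composition, which was 62.5% GC in the median member and 67% in the other genes. The ETS core CCGGAAGT was in 1 member window, 3.0% against 6.9%, and ACGTG was in 7, 21.2% against 20.1%. The E2F pattern TTTNNCGC (N, any base) was in 5, 15.2% against 7.8%, and TATAAA in 1, 3.0% against 3.8%. The CHR variant TTCGAA and the patterns for NRF1, YY1 and RFX were in 0, against 1.0%, 1.9%, 0.5% and 0.5%. No further motif was looked for. A start of another gene on the opposite strand lay within 1000 bases for 9 of the 33 members, or 27.3%, against 16.2% of the other genes. TMTC3 starts 219 bases from CEP290 in the opposite direction. It had 220 ± 13 CPM in mut and 242 ± 13 CPM in WT and was not called, with a log2 fold change of -0.14 (edgeR adjusted p = 0.0911).

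DIS3L2 itself, which in these counts can come from the recoded transgene as well as the endogenous gene, had 1144, 1040 and 1091 CPM in mut and 763, 813 and 777 CPM in WT, a log2 fold change of 0.48 (SE 0.05). The counts do not show which variant a library makes. Of 6 HEK293 marker genes VIM, NEFL, INA and LIN28B passed the count filter and NEFM and PAX2 were near 0. VIM, NEFL and INA were called higher in mut, with log2 fold changes of 0.23, 0.51 and 0.55. LIN28B was called lower, at -0.22, a call lost with the span trend removed. The list summed to 1632 to 1729 CPM in mut and 1389 to 1485 CPM in WT. Markers of multiciliated cells, which build many centrioles, summed to 13.0 to 14.7 CPM in mut and 11.4 CPM in every WT library over 14 genes, with 4 tested, of which CCNO was called higher, a call lost with the span trend removed. MCIDAS, a regulator that defines these cells, had 4.47, 5.52 and 4.94 CPM in mut and 4.03, 3.37 and 3.07 CPM in WT and was not called (edgeR adjusted p = 0.053), with every mut library above the WT libraries. Other defining genes were near 0. DEUP1 was at 0 in every library but WT 1, at 0.10 CPM, and FOXJ1 at 0.23 to 0.56 CPM in mut and 0.16 to 0.41 CPM in WT. Blood and endothelial markers summed to 1.95 to 2.70 CPM in mut and 0.86 to 1.49 CPM in WT, fibroblast markers to 4.71 to 6.92 CPM in mut and 2.79 to 3.76 CPM in WT, and hepatocyte markers to at most 0.37 CPM in any library.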

How the data were processed

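For the 3 mut and 3 WT total RNA libraries the authors deposited unnormalized counts per Ensembl gene. Small RNA: the authors deposited fragment counts, depth-scaled FPM (a signal) and FPKM per feature, of which only counts were used. Build hg38 and the tools STAR 2.4.0, HTSeq 0.6.1, SAMtools 1.2-10, CASAVA 1.8.2, DESeq2 1.8.2 and FastQC 0.11.3 are listed in the submitters' processing notes. Neither annotation version nor strand setting is given there, so antisense overlap at CEP loci could not be checked.

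Gene counts summed to 8315986 to 12675042 per library. Reads naming no gene (57.8% to 63.2%) were left out. Replicates differed beyond sampling noise (chi-square per degree of freedom 1.98 to 4.38). Depth limits low genes most. Counts were tested in R 4.3.3 with edgeR 4.0.16 (TMM, filterByExpr, quasi-likelihood F test, Benjamini-Hochberg), with no block. The count test was checked on simulated data. Each SE is the absolute log2 fold change divided by the square root of the edgeR F statistic, whose dispersions are moderated across genes. CPM use TMM library sizes. The span trend was a natural spline with 4 degrees of freedom of each library's log2 CPM on log10 gene span, fitted over protein-coding genes and used as an offset. Alternatives were DESeq2 1.42.0, 2 other scalings, protein-coding library sizes, 2 count filters, the span trend, a replicate block and each library left out. Spans and promoters come from RefSeq GRCh38.p14, matched to 39671 genes. Of 177 list symbols 175 were matched.

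Values of 1 member are not reported here. Members and lists were chosen with earlier results of these data known. Named list genes are at most 3 lower and 3 higher per list by size of fold change, plus known partners of CEP proteins. Counts per gene are not divided by transcript length, so levels are not compared between genes.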

Additional observations from a re-analysis of the deposited data

How the results depend on the processing

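The number of CEP genes called lower (17 in the reported fit) ranged from 10 to 19 when each library was left out in turn, with 10 without mut 1 and 11 without WT 3. It was 12 under DESeq2, 14 under upper quartile scaling, 15 with the span trend removed and 17 under the remaining scalings and filters. The number called higher was 2 under each of these. The median log2 fold change ranged from -0.25 to -0.13 with a library left out. With the span trend removed and a library left out, an alternative chosen after seeing the data, 11 to 17 were called lower and 2 to 3 higher. The other centrosome and cilium genes called lower were 34, and 23 to 32 with a library left out. No called CEP gene, and no called gene of the centrosome, cilium and cell cycle lists, changed direction in an alternative run. The fits with the span trend removed and a library left out were not part of this check. Neither were the cell type markers, the head-to-head genes and DIS3L2.

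Replicate numbers were not shown to pair the libraries: deviations of mut and WT libraries with the same number correlated at -0.089, -0.073 and 0.032. With the replicate block 16 members were called lower and 2 higher, with a median of -0.18, and with the replicate block and the span trend removed 15 and 2, with a median of -0.14. The other centrosome and cilium genes called lower were 31 with the block and 30 with the block and the span trend removed.

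Low-count members (CEP126, CEP63 and CEP19, under 9 CPM in every library) have SEs of 0.15 to 0.22, so changes of the size seen in most called members were not detectable in them at this depth. The small RNA alternatives were not run, because no feature in a CEP gene passed the count filter.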

Other observations

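Small RNA features inside CEP genes were too shallow to compare. Of 10 annotated features within CEP loci, 0 were among the 559 tested in edgeR, of which 1 was called. Only 2 had any fragment, both in CEP295 on chromosome 11. The feature at chr11:93721542-93721621 had 5, 7 and 5 fragments in mut and 2, 2 and 3 in WT, and the feature at chr11:93721797-93721866 had 4, 10 and 4 in mut and 3, 9 and 6 in WT. A locus reconstructed from the reads inside CEP290 had 0, 6 and 0 fragments in mut and 1, 0 and 3 in WT.

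Some genes that start head to head with a CEP gene were called where that CEP gene was not. Differences within a pair were not tested. DDX5, an RNA helicase gene opposite CEP95, was lower, with 209 ± 7.0 CPM in mut against 250 ± 1.8 CPM in WT (SD, n = 3 each, edgeR adjusted p = 0.00113), where CEP95 had a log2 fold change of -0.13 and was not called. SDCCAG8, a centrosomal gene opposite CEP170, was higher, with 27.2 ± 2.4 CPM in mut against 21.9 ± 1.8 CPM in WT (edgeR adjusted p = 0.0162), where CEP170 had -0.02. The stress-response gene SESN1, opposite CEP57L1, was lower with a log2 fold change of -0.23 (edgeR adjusted p = 0.0175), where CEP57L1 had -0.08. DDX5, with a log2 fold change of -0.26, and SESN1 lay on the same side of 0 as the CEP gene opposite. These pairs were picked for their calls after the values were seen.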
